A study of Danio rerio with 9 samples.

Results

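Expression of 9 apolipoprotein genes was examined in whole zebrafish larvae after exposure to perfluorononanoic acid (PFNA), a long-chain perfluoroalkyl acid. The genes were apoa1a (ENSDARG00000012076), apoa1b (ENSDARG00000101324), apoa2 (ENSDARG00000015866), apoba (ENSDARG00000042780), apobb.1 (ENSDARG00000022767), apoc1 (ENSDARG00000092170), apoc2 (ENSDARG00000092155), apoea (ENSDARG00000102004) and apoeb (ENSDARG00000040295). They were taken by gene name from the deposited tables, in which all 9 were found among 19251 genes (0.1 µg/L PFNA) and 19731 genes (10 µg/L PFNA). Fertilized embryos of AB × Tübingen parents were placed in medium with 0.1 µg/L PFNA, 10 µg/L PFNA or the solvent control of 0.1% DMSO. They were collected as larvae after 7 days of exposure. PFNA was dissolved in DMSO, so all groups carried the solvent. Each group had 3 libraries, each from the pooled larvae of a separate beaker (14 to 15 larvae). In RNA of whole larvae, fewer cells of a type and less RNA per cell cannot be told apart.

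Apolipoproteins are the protein part of lipoproteins, the particles that carry triglyceride and cholesterol through the blood. ApoB forms the backbone of the particles that liver and intestine secrete, whereas the smaller apoA, apoC and apoE proteins move between particles, activate or inhibit lipases and bind receptors. In zebrafish larvae the liver, the intestine and the yolk syncytial layer make them, and several exist as duplicated genes, written a and b.

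Recovered reads on genes ranged from 14491289 to 23963715 per library, and the first sequencing index was the same in 7 libraries and different in DMSO replicates 1 and 2. The 9 genes together took 0.384%, 0.194% and 0.554% of the reads in the DMSO control, 0.210%, 0.411% and 0.312% at 0.1 µg/L, and 0.569%, 0.443% and 0.479% at 10 µg/L. The DMSO libraries overlapped both exposed groups in this share, whereas the 3 libraries at 10 µg/L lay above the 3 at 0.1 µg/L. Without the 100 most abundant other genes the 2 concentrations overlapped, at 0.724% in 0.1 µg/L replicate 2 and 0.721% in 10 µg/L replicate 2. Between 38.5% and 49.4% of these reads came from apoa1b, one of the zebrafish genes for apoA-I, the main protein of high-density lipoprotein. Gene lengths were not used here, so levels are compared between libraries and not between genes.

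The plot of levels by library gives the 9 genes on a single scale, for which the reads of all libraries were normalized together by median-of-ratios size factors.

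**Figure D1:**
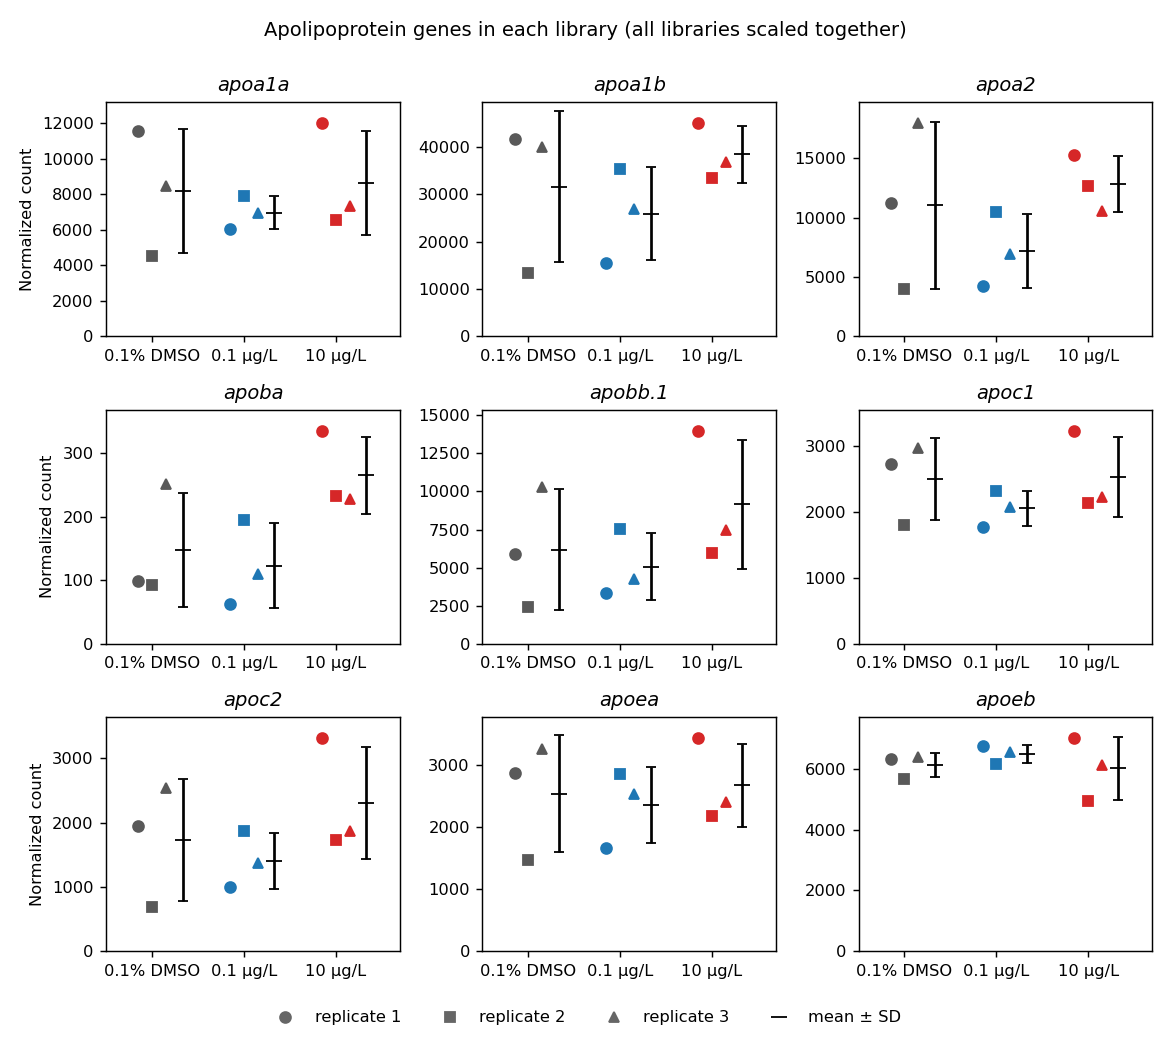
Normalized counts (y axis, linear, from 0) of each apolipoprotein gene in the 3 libraries of each group, with all 9 libraries scaled together. Symbols mark replicates and the bar beside them the mean ± SD (n = 3). DMSO replicate 2 was the lowest library for 6 genes and 10 µg/L replicate 1 the highest for 8 genes.

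Levels differed widely between libraries of the same group. On this scale DMSO replicate 2 was among the lowest 2 of the 9 libraries for all 9 genes, and 0.1 µg/L replicate 1 was among the lowest 2 for 8 genes. The highest library was 10 µg/L replicate 1 for 8 genes and DMSO replicate 3 for apoa2. Within DMSO, the SD of log2 levels had a median of 0.80 over the 9 genes, against 0.31 over every gene whose mean reached 10. The corresponding medians were 0.45 against 0.26 at 0.1 µg/L and 0.33 against 0.20 at 10 µg/L. The ratio of the highest to the lowest DMSO library reached 4.57 for apoa2 and 4.32 for apobb.1, and was 1.13 for apoeb.

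At 0.1 µg/L PFNA, expression was compared with DMSO to ask whether the lower concentration moved the apolipoprotein genes. Values were lower than in the DMSO control for 8 genes and higher for apoeb, and none of the 9 passed the test. The log2 fold changes ranged from -0.45 for apoa2 to 0.09 for apoeb, with a median of -0.14, against 0.00 over all genes tested. The test was the moderated test of limma on log2(normalized count + 1), two-sided, with Benjamini-Hochberg adjustment over the 19065 genes whose mean reached 10. All 9 adjusted p-values were 1.00. None of the 9 had an unadjusted p under 0.05 by limma, edgeR or DESeq2, where 1.57% of all genes did by limma and 0.0% had an adjusted p under 0.05. The smallest unadjusted p of the 9 was 0.248, for apoc1.

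ApoA-II is a small protein of high-density lipoprotein, and its gene apoa2 had the largest difference here. It had 4037, 9981 and 6578 normalized counts at 0.1 µg/L, against 10627, 3734 and 17201 in DMSO. Both the lowest and the highest of these 6 libraries were controls, so the groups overlapped. The log2 fold change was -0.45 (SE 0.51, n = 3 each), with a 95% interval from -1.59 to 0.68.

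The apoA-I gene apoa1b had 14812, 33688 and 25633 normalized counts at 0.1 µg/L, against 39545, 12592 and 38249 in DMSO. The low value of DMSO replicate 2 lay under all exposed libraries, while the other 2 controls lay above them. Its log2 fold change was -0.19 (SE 0.46). For apoc1, a small protein that inhibits lipases in mammals, the counts were 1690, 2211 and 1980 at 0.1 µg/L, against 2590, 1712 and 2841 in DMSO. Here DMSO replicate 2 lay within the range of the exposed libraries and the other controls above it, with a log2 fold change of -0.26 (SE 0.21).

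The comparison depended on single controls. Without DMSO replicate 2, 4 genes (apoa1a, apoa2, apoc1 and apoc2) had an unadjusted p under 0.05 by limma, where 2.16% of all genes did, and 0 had an adjusted one. Without DMSO replicate 3, by contrast, the log2 fold change was 0.03 for apoa2 and 0.07 for apoa1b.

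At 10 µg/L PFNA, values were higher than in DMSO for 8 genes and lower for apoeb, and none of the 9 passed the test. The log2 fold changes ranged from -0.05 to 0.97 with a median of 0.43, against 0.01 over all 19610 genes tested. Only apoba had an unadjusted p under 0.05 by limma, where 13.1% of all genes did. By limma 0.0% of all genes had an adjusted p under 0.05 and by DESeq2 1.17% did, and none of the 9 genes was among these. The edgeR and DESeq2 tests each gave 1 of the 9 genes an unadjusted p under 0.05. Both concentrations were set against the same 3 DMSO libraries, so the fold changes at the 2 concentrations are not independent of each other.

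The genes apoba and apobb.1 encode apoB, which is built into each particle once and stays with it until the particle is cleared. For apoba, the normalized counts were 356, 247 and 243 at 10 µg/L, against 106, 99.1 and 269 in DMSO. Of the controls, DMSO replicate 3 lay within the range of the exposed libraries and the others lay far below it. The log2 fold change was 0.97 (SE 0.35), with a 95% interval from 0.18 to 1.75, an unadjusted p of 0.0207 and an adjusted p of 0.311 by limma. The gene was measured from 353, 253 and 271 reads at 10 µg/L and from 65, 127 and 316 reads in DMSO. Without DMSO replicate 3, its log2 fold change was 1.43 and its adjusted p 0.00381 by limma, in a fit that gave 11.2% of all genes an adjusted p under 0.05. In that fit 4 of the 9 genes had an unadjusted p under 0.05, where 26.9% of all genes did. None of the 9 did without DMSO replicate 1, DMSO replicate 2 or 10 µg/L replicate 1, where 9.18%, 8.89% and 9.23% of all genes did in the 3 fits, in this order.

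The more abundant copy in reads, apobb.1, had 14854, 6334 and 7969 normalized counts at 10 µg/L, against 6338, 2545 and 10972 in DMSO. The groups overlapped, and the exposed group held the highest library and the controls the lowest. The log2 fold change was 0.69 (SE 0.47), with a 95% interval from -0.36 to 1.75 and an adjusted p of 0.561 by limma. The same arrangement was found for apoc2, the cofactor of lipoprotein lipase, with 3512, 1846 and 1994 normalized counts at 10 µg/L, against 2103, 744 and 2713 in DMSO. Its log2 fold change was 0.54 (SE 0.42).

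The apoA genes were not separated from DMSO at 10 µg/L either. Normalized counts of apoa2 were 16255, 13442 and 11225 at 10 µg/L, against 12062, 4208 and 19198 in DMSO, with a log2 fold change of 0.44 (SE 0.45). For apoa1b they were 47856, 35562 and 39185 at 10 µg/L, against 44886, 14191 and 42688 in DMSO, with a log2 fold change of 0.43 (SE 0.41). In both genes DMSO replicate 2 lay under every exposed library and another control lay within or above their range. The smallest differences were those of apoc1 (0.01, SE 0.23), apoeb (-0.05, SE 0.18), apoea (0.12, SE 0.29) and apoa1a (0.12, SE 0.34) on the log2 scale. Their 95% intervals together spanned -0.64 to 0.87.

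Of the controls, only DMSO replicate 3 had the first index of the exposed libraries. With the index as a covariate, the log2 fold change of apoba at 10 µg/L over DMSO was 0.045 (SE 0.27), with an unadjusted p of 0.869 by limma. The other 8 genes had lower values than in DMSO in this fit, between -0.027 for apoa1a and -0.51 for apoa2. None of the 9 genes had an unadjusted p under 0.05, where 7.15% of all genes did. The index and the 2 controls that carried another one cannot be told apart.

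The 2 concentrations were compared directly on the common scale. The test itself used no DMSO library, although the DMSO libraries entered the joint scaling. Here 8 of the 9 genes had higher values at the higher concentration, with a median log2 fold change of 0.64, against 0.00 over 18965 genes. An unadjusted p under 0.05 was found by limma for 5 of them (apoba, apoa2, apoc2, apobb.1 and apoa1b), all higher at 10 µg/L, where 14.2% of all genes were higher and 25.7% differed in either direction. By limma 0 of the 9 genes and 0.0% of all genes had an adjusted p under 0.05. By DESeq2 on the recovered reads, 2 genes rose, apoa2 (adjusted p 0.0249) and apoba (adjusted p 0.0232), where 8.85% of all genes were called. By edgeR, 4 genes had an unadjusted and 0 an adjusted p under 0.05. For 2 genes every library at 10 µg/L lay above every library at 0.1 µg/L, as for 14.9% of all genes.

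**Figure D2:**
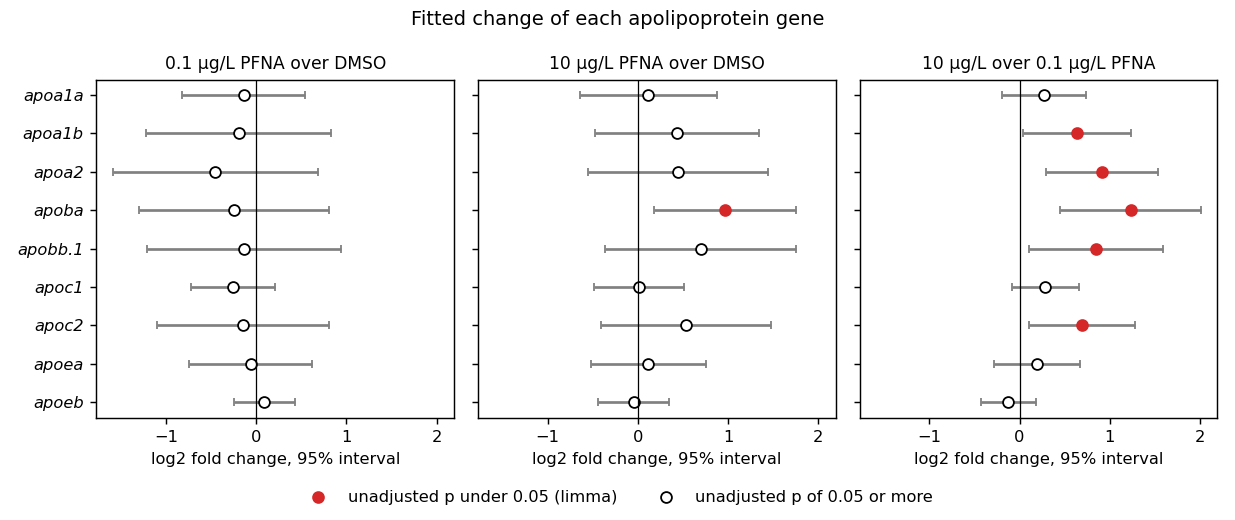
Log2 fold change (x axis) of each apolipoprotein gene from limma with its 95% interval, for 0.1 µg/L PFNA over DMSO, 10 µg/L PFNA over DMSO and 10 µg/L over 0.1 µg/L PFNA (3 libraries a group). Filled points have an unadjusted p under 0.05: 0, 1 and 5 genes in the 3 comparisons.

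The largest difference was that of apoba, with 336, 232 and 228 normalized counts at 10 µg/L, against 62.5, 195 and 111 at 0.1 µg/L. The groups did not overlap, although 0.1 µg/L replicate 2 came close to the libraries at 10 µg/L. The log2 fold change was 1.23 (SE 0.35), with an unadjusted p of 0.00558 and an adjusted p of 0.0830 by limma. At 0.1 µg/L, apoba was measured from 48, 203 and 97 reads.

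For apoa2, the normalized counts were 15310, 12655 and 10540 at 10 µg/L, against 4233, 10449 and 6900 at 0.1 µg/L. The groups again did not overlap, with 0.1 µg/L replicate 2 just under the lowest library at 10 µg/L. The log2 fold change was 0.91 (SE 0.28), with an unadjusted p of 0.00793 and an adjusted p of 0.0914 by limma.

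The other 3 genes overlapped between the concentrations. Expression of apoc2 was 3308, 1738 and 1873 normalized counts at 10 µg/L, against 992, 1863 and 1373 at 0.1 µg/L (log2 fold change 0.69, SE 0.26). For apobb.1 the counts were 13990, 5964 and 7484 at 10 µg/L, against 3340, 7554 and 4267 at 0.1 µg/L (0.85, SE 0.33). In both, 0.1 µg/L replicate 2 reached into the range of the 10 µg/L libraries. Counts of apoa1b were 45074, 33482 and 36796 at 10 µg/L, against 15531, 35267 and 26889 at 0.1 µg/L (0.64, SE 0.27), with the same library inside the range of the higher concentration.

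Calls by limma at the adjusted threshold depended on that library. Without 0.1 µg/L replicate 2, apoa1b, apoa2, apoba, apobb.1 and apoc2 all had an adjusted p under 0.05, between 0.000654 and 0.0105, in a fit that gave 27.0% of all genes an adjusted p under 0.05. Leaving out 10 µg/L replicate 1, 0.1 µg/L replicate 1 or 0.1 µg/L replicate 3 left 2 genes each time at an unadjusted p under 0.05. Of all genes, 20.3%, 16.1% and 15.2% had one in the 3 fits, in this order. Without 10 µg/L replicate 2, apoa1b, apoa2, apoba, apobb.1 and apoc2 had one, with 1898 of 18938 genes higher and 1525 lower. Without 10 µg/L replicate 3, apoa2, apoba, apobb.1 and apoc2 had one, with 2008 of 18961 genes higher and 1596 lower. With quantile normalization of the libraries of the 2 concentrations, 7 genes had an unadjusted p under 0.05, where 25.5% of all genes did. They were the 5 genes called without 0.1 µg/L replicate 2, with apoa1a and apoc1.

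The remaining 4 genes had unadjusted p-values of 0.120 or more between the concentrations. The copies apoea and apoeb encode apoE, the ligand by which receptors of the low-density lipoprotein receptor family take up particles. Normalized counts of apoea were 2869, 1473 and 3261 in DMSO, 1669, 2859 and 2526 at 0.1 µg/L, and 3426, 2182 and 2407 at 10 µg/L. Its low libraries were DMSO replicate 2 and 0.1 µg/L replicate 1, as for the apoA and apoB genes. In zebrafish apoeb is also expressed in the yolk syncytial layer and in microglia, and its counts were 6331, 5650 and 6371 in DMSO, 6756, 6159 and 6550 at 0.1 µg/L, and 6991, 4930 and 6134 at 10 µg/L. In apoeb, DMSO replicate 2 was only slightly below the other controls, 0.1 µg/L replicate 1 was the highest of its group, and the lowest library was 10 µg/L replicate 2. The log2 fold change of apoeb at 10 µg/L over 0.1 µg/L was -0.12 (SE 0.14), with a 95% interval from -0.43 to 0.18.

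The other apoA-I gene, apoa1a, had 11552, 4530 and 8457 normalized counts in DMSO, 6008, 7881 and 6963 at 0.1 µg/L, and 12006, 6552 and 7357 at 10 µg/L. The 2 highest libraries were a control and a library at 10 µg/L. The counts of apoc1 were 2730, 1804 and 2972 in DMSO, 1772, 2315 and 2077 at 0.1 µg/L, and 3235, 2140 and 2224 at 10 µg/L. Its range over the libraries was narrower than that of the apoA genes, and no group stood apart.

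Shares within each duplicated pair were compared because they do not depend on how libraries are scaled. The share of apoa1a in the reads of apoa1a and apoa1b was 21.5 ± 4.00% in DMSO, 22.2 ± 5.03% at 0.1 µg/L and 18.0 ± 2.61% at 10 µg/L (SD, n = 3 each). It was highest in 0.1 µg/L replicate 1, at 27.9%, and in DMSO replicate 2, at 25.5%, the libraries in which the 9 genes took the smallest shares of reads. The share of apoba in the reads of apoba and apobb.1 was 2.60 ± 1.06% in DMSO, 2.29 ± 0.397% at 0.1 µg/L and 3.02 ± 0.704% at 10 µg/L. A further apoB gene, apobb.2, is not among the 9 and was left out of this share. The share of apoea in the apoE pair was 28.6 ± 6.96% in DMSO, 26.4 ± 6.07% at 0.1 µg/L and 30.6 ± 2.35% at 10 µg/L. It was lowest in 0.1 µg/L replicate 1, at 19.8%, and in DMSO replicate 2, at 20.7%. Groups overlapped in all 9 comparisons of these shares, with a smallest p of 0.2 in exact two-sided permutation tests and adjusted values of 0.9. With 3 libraries against 3, no exact test can give a p below 0.1. Reads that could come from either copy may have been left out by the counting of unique reads, which limits these shares.

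Across the 9 libraries, 8 of the genes varied together, and apoeb followed them less closely. Over the 28 pairs without apoeb, Pearson's r of the log2 levels ranged from 0.47 to 0.98 with a median of 0.89 (n = 9 libraries, which share groups and scaling). With each group centred on its own mean, the median was again 0.89. For the 8 pairs with apoeb, r ranged from -0.11 to 0.48 with a median of 0.28. With each group centred on its own mean it ranged from 0.16 to 0.64 with a median of 0.51, and was highest with apoa1a. In the RefSeq annotation of the assembly GRCz12tu, the genes apoa4b.2, apoeb, apoc1, apoc4, apoa2 and apoc2 follow each other on one chromosome. Spread differed among these neighbours: the ratio of the highest to the lowest DMSO library was 1.13 for apoeb, 1.65 for apoc1, 3.65 for apoc2 and 4.57 for apoa2.

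Genes most like the members' mean profile over the 9 libraries were plg (r = 0.996), serpina1 (0.994), apoa4b.2 (0.994), slc27a2a (0.991) and gpr39 (0.990). They encode plasminogen, the liver protease inhibitor alpha-1-antitrypsin, an apoA-IV, a fatty acid transporter and a G protein-coupled receptor, and serpina1 is also one of the liver markers described next. At the looser limit of an r above 0.9, there were 348 of 19067 genes.

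Markers of the liver moved with the mean of the 9 genes, which apoeb followed least (r = 0.23 with that mean). The summed normalized count of 17 liver markers, none of them an apolipoprotein gene and none at 0 in any library, had a range of 34892 to 90313 in DMSO, 43095 to 72326 in the 0.1 µg/L group and 52654 to 95607 in the 10 µg/L group. It was lowest in DMSO replicate 2 and 0.1 µg/L replicate 1 and highest in 10 µg/L replicate 1. The mean log2 profile of these markers had an r of 0.992 with that of the 9 genes over the 9 libraries. The r was 0.941 for 7 enterocyte markers, 0.806 for 8 markers of microglia and macrophages, 0.421 for 13 of the exocrine pancreas and 0.344 for 8 of the epidermis. Spearman's rho was 0.983 for the liver markers and also 0.983 for the enterocyte markers, so by rank the liver did not stand apart. Between 10 µg/L and 0.1 µg/L, 9 of the 17 liver markers had an unadjusted p under 0.05 by limma, all higher at 10 µg/L. Of all genes, 14.2% were higher at this threshold and 25.7% differed in either direction. By limma 0 of the markers and 0.0% of all genes had an adjusted p under 0.05. By DESeq2 3 markers had one, where 8.85% of all genes did. The part of the liver markers in the apolipoprotein values was not tested.

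**Figure D3:**
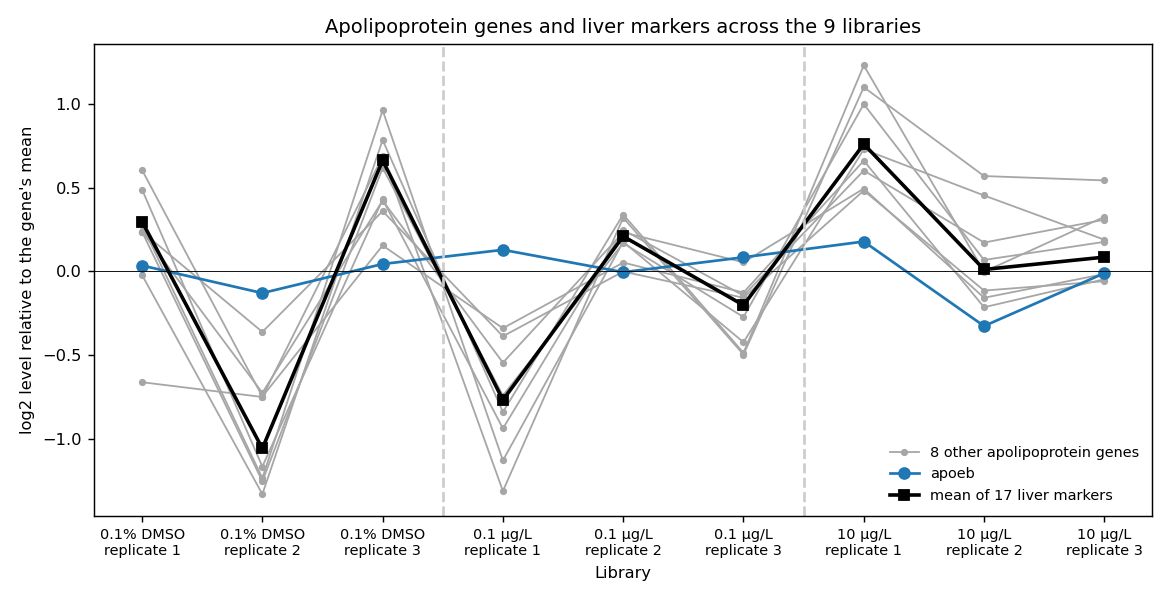
Log2 level relative to each gene's own mean (y axis) in the 9 libraries (x axis) for apoeb, the 8 other apolipoprotein genes and the mean of 17 liver markers. DMSO replicate 2 and 0.1 µg/L replicate 1 are low and 10 µg/L replicate 1 is high for the liver markers and most of the genes, while apoeb is lowest in 10 µg/L replicate 2.

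Levels were therefore also expressed relative to the mean log2 level of the 17 liver markers of the same library, a measure chosen after the data were seen. Within DMSO, the SD of log2 values was then 0.08 for apoc2, against 0.99 before, and 0.24 for apoa2, against 1.12 before. It was 0.81 for apoeb, against 0.10 before, and 0.52 for apoc1, against 0.39 before. The other 5 genes had a smaller SD in DMSO after this step than before it. These changes of SD follow in part from the subtraction itself, since the markers varied together with the mean of these genes.

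**Figure D4:**
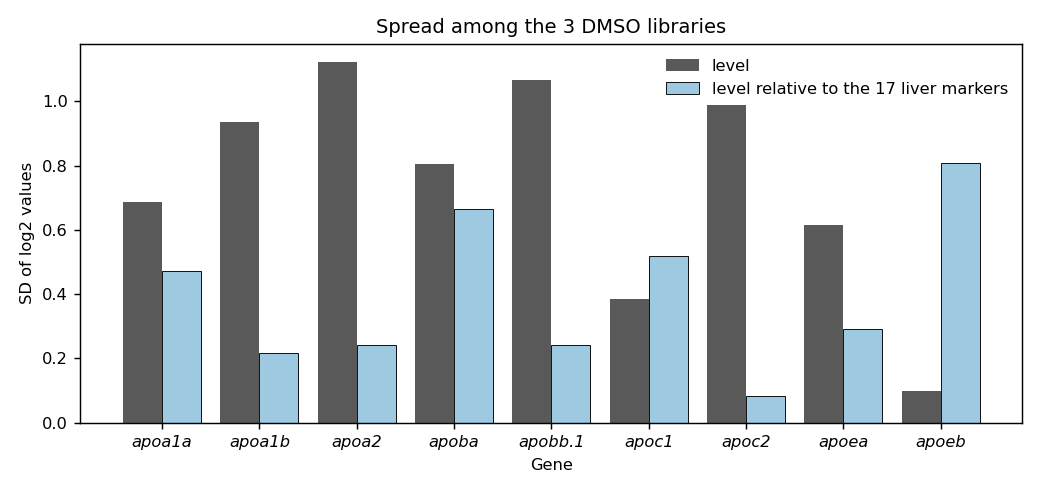
SD of log2 values among the 3 DMSO libraries (y axis, from 0) for each apolipoprotein gene, as the level and as the level relative to 17 liver markers of the same library. The relative level varied less for 7 genes and more for apoc1 and apoeb.

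On this relative scale, apoba was 0.66 higher at 10 µg/L than in DMSO and 0.69 higher than in the 0.1 µg/L group (log2). Its relative values were -2.54, -2.32 and -2.42 at 10 µg/L, against -3.83, -2.57 and -2.85 in DMSO and -3.42, -2.77 and -3.17 at 0.1 µg/L. All libraries at 10 µg/L lay above all others, although -2.54 in 10 µg/L replicate 1 and -2.57 in DMSO replicate 2 were close. How many of all genes separate on this relative scale was not computed. Before this step, 18.0% of all genes did not overlap between 10 µg/L and DMSO, and 28.7% between the concentrations, in either direction. The relative level of apoc2 was 0.76, 0.58 and 0.61 at 10 µg/L, against 0.46, 0.33 and 0.48 in DMSO and 0.55, 0.48 and 0.45 at 0.1 µg/L, again without overlap. The relative level of apoa2 was 0.38 higher at 10 µg/L than in the 0.1 µg/L group, without overlap. The relative level of apoea was 0.35 lower at 10 µg/L than in the 0.1 µg/L group, also without overlap, whereas its level was 0.19 higher. Each of these exact two-sided permutation tests gave the smallest p possible, 0.1, and the smallest adjusted value over the 27 tests was 0.45.

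Other genes of lipoprotein metabolism were described from lists. None of their members had an adjusted p under 0.05 by limma in any comparison, and the percentages given above for all genes are the background. By DESeq2 none had one against DMSO, whereas at 10 over 0.1 µg/L 2 further apolipoprotein genes, 2 assembly genes, 1 receptor, 0 remodelling genes and 4 regulators did. The median log2 fold change between the concentrations was 0.48 for the further apolipoprotein genes, 0.65 for assembly, 0.19 for receptors, 0.22 for remodelling and 0.34 for regulators, against 0.00 over all genes tested. Of 10 further apolipoprotein genes tested, all 10 had lower values at 0.1 µg/L than in DMSO and none an unadjusted p under 0.05. At 10 µg/L over DMSO, 5 had higher and 5 lower values, and apodb (-0.35, SE 0.15) had an unadjusted p under 0.05. Between 10 and 0.1 µg/L, 4 were higher at an unadjusted p under 0.05, namely apom (0.57, SE 0.17), apoa4b.3 (1.03, SE 0.36), apoa4b.2 (0.84, SE 0.31) and apoa4a (1.28, SE 0.50), and apodb was lower (-0.30, SE 0.13). ApoM carries sphingosine 1-phosphate in mammals, and apoA-IV is a protein of intestinal particles.

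Most genes for the assembly of particles, 12 of 15, had higher values at 10 than at 0.1 µg/L. The 3 lower ones were tm6sf2 (-0.56, SE 0.27), p4hb (-0.17, SE 0.11) and sar1b (-0.05, SE 0.10). Of the 15, 6 were higher at an unadjusted p under 0.05 and 0 lower, where 14.2% of all genes were higher. The 6 included the acyltransferases of triglyceride synthesis mogat3b (1.56, SE 0.44) and mogat2 (1.19, SE 0.42). Others were the lipid droplet protein gene cideb (1.28, SE 0.42) and pla2g12b (1.02, SE 0.34). At 0.1 µg/L, mogat3b and cideb had low means, of 24.7 and 19.4 normalized counts. The gene mttp, whose protein loads lipid onto apoB, was also among the 6, at 0.80 (SE 0.35). Against DMSO, none of the 15 had an unadjusted p under 0.05 at either concentration.

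Of 17 receptors and their partners, 5 were higher and 1 lower at 10 than at 0.1 µg/L at an unadjusted p under 0.05. Over all genes, 14.2% were higher and 25.7% differed in either direction at this threshold. The low-density lipoprotein receptor gene ldlrb had the largest difference (1.39, SE 0.35). Its mean was 100.2 ± 3.04 normalized counts at 10 µg/L and 40.6 ± 19.1 at 0.1 µg/L (SD, n = 3 each), without overlap. It was also lower at 0.1 µg/L than in DMSO at an unadjusted p of 0.0371 by limma, with 38.8 ± 18.2 against 75.8 ± 28.0 normalized counts. In that comparison 1.57% of all genes had an unadjusted p under 0.05. The copy ldlra, more abundant in reads, differed little between the concentrations (-0.05, SE 0.14), with means of 367 at 10 µg/L and 382 at 0.1 µg/L. At 0.1 µg/L over DMSO, ldlra was at 0.01 (SE 0.20). The chaperone of these receptors, lrpap1, was lower at 10 than at 0.1 µg/L (-0.41, SE 0.13).

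Of 15 genes for the remodelling of particles, 3 were higher and 0 lower at 10 than at 0.1 µg/L at an unadjusted p under 0.05. Among all genes, 14.2% were higher and 25.7% differed in either direction. The 3 included the cholesterol exporter gene abca1b (0.63, SE 0.19) and cetp, the cholesteryl ester transfer protein gene (0.91, SE 0.30). At 10 µg/L over DMSO, 2 of 15 were lower at that threshold, where 13.1% of all genes differed in either direction. They were the endothelial lipase gene lipg (-0.70, SE 0.24) and the phospholipid transfer protein gene pltp (-0.40, SE 0.17). Of 27 regulators, 7 were higher and 1 lower at 10 than at 0.1 µg/L at that threshold. Of all genes, 25.7% differed in either direction there. The nuclear receptor genes rxrba (2.08, SE 0.51) and pparaa (0.95, SE 0.26), the sterol regulator gene srebf1 (1.02, SE 0.28) and cebpa (0.58, SE 0.16) had the smallest p-values. Both rxrba (1.21, SE 0.50) and pparaa (0.70, SE 0.30) were also higher at 10 µg/L than in DMSO at an unadjusted p under 0.05. The gene nr5a2 was lower (-0.84, SE 0.32), which made 3 of 27 regulators, where 13.1% of all genes differed. PPARα is a receptor for fatty acids that pairs with RXR. At 0.1 µg/L over DMSO, cebpa (-0.64, SE 0.23) was lower and hnf1bb (0.69, SE 0.31) higher at an unadjusted p under 0.05. Of all genes, 1.57% differed at this threshold in either direction.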

How the data were processed

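Per the labels and methods, the authors trimmed reads with Trimmomatic 0.36, mapped them with STAR 2.5.2b to GRCz10 and used featureCounts (Subread 1.5.2) to count the uniquely mapped reads on exons. The deposited signal is the read count of a gene divided by the DESeq2 size factor over the 6 libraries of its table. The authors' deposited log2 fold changes and p-values were not used here.

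Whole reads were recovered from 12 library columns (100% of values within 0.02 of a whole number), and the DMSO reads were equal in both tables. Genes with a mean of at least 10 were tested with limma 3.58.1 in R 4.3.3 (log2 of the value plus 1, trend, Benjamini-Hochberg, threshold 0.05), each concentration within its table, and the concentrations on jointly scaled reads. With 3 pools a group, p-values measure the spread between beakers, and depth limits the precision of low genes. Alternatives were other pseudocounts, filters, normalizations, moderation, edgeR 4.0.16, DESeq2 1.42.0, index, replicate block and leaving out libraries. Fits were tested on simulated data. Members and lists were chosen with earlier results of these data known. All 9 members are named; from other lists at most 4 genes per comparison with an unadjusted p under 0.05, by smallest p, of which some are left out here, and 5 genes by likeness. The gene mttp was named outside this rule. Promoter sequences were not used here. Figures were made with Python 3.11.15 and matplotlib 3.10.9.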

Additional observations from a re-analysis of the deposited data

How the results depend on the processing

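No alternative gave an adjusted p under 0.05 at 0.1 µg/L. With one library left out, the count of the 9 genes at an unadjusted p under 0.05 ranged from 0 to 4 at 0.1 µg/L over DMSO, from 0 to 4 at 10 µg/L over DMSO and from 2 to 6 at 10 over 0.1 µg/L. In the fits with the highest counts against DMSO, 2.16% and 26.9% of all genes had one, in this order. The count of 6 came from a fit with 3954 of 18971 genes higher and 3472 lower. The adjusted count ranged from 0 to 1 at 10 µg/L over DMSO and from 0 to 5 between the concentrations. The highest adjusted counts came from fits that gave 11.2% and 27.0% of all genes an adjusted p under 0.05. Adjusting for the first index set the libraries at 0.1 µg/L against DMSO replicate 3 alone, the highest library for apoa2. The other controls did not enter these estimates, so they are not differences from the DMSO group. Over this single control, the log2 fold changes of the 9 genes ranged from -1.42 for apoa2 to 0.022 for apoeb. Those of apoba and apobb.1 were -1.18 and -1.11. At 10 µg/L the adjustment left the same single control, and its values are given below. At 10 µg/L quantile normalization gave 2 genes an unadjusted p under 0.05, where 1494 of 19610 genes were higher and 1270 lower at this threshold. No trend gave 0, where 1422 were higher and 875 lower. Between the concentrations, quantile normalization gave 7, where 25.5% of all genes had one. No trend gave 2, with 2410 of 18965 genes higher and 1744 lower. All 9 libraries in one model gave 1, with 2130 of 19076 genes higher and 1583 lower. DESeq2 gave an adjusted count of 2, where 8.85% of all genes were called.

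Left-out libraries turned the sign of log2 fold changes. At 0.1 µg/L over DMSO they ranged over -0.51 to 0.16 for apoa1a, -0.73 to 0.14 for apoa1b, -1.07 to 0.028 for apoa2, -0.66 to 0.22 for apoba, -0.71 to 0.35 for apobb.1, -0.71 to 0.23 for apoc2 and -0.41 to 0.17 for apoea. At 10 µg/L over DMSO they ranged over -0.26 to 0.42 for apoa1a, -0.11 to 0.72 for apoa1b, -0.17 to 0.92 for apoa2, -0.21 to 0.15 for apoc1, -0.025 to 0.91 for apoc2, -0.24 to 0.34 for apoea and -0.16 to 0.090 for apoeb. Between the concentrations they ranged over -0.036 to 0.35 for apoea and -0.24 to 0.014 for apoeb. The share differences ranged, in percentage points, from -2.12 to 2.69 (apoa1a), -0.775 to 0.275 (apoba) and -6.07 to 1.19 (apoea) at 0.1 µg/L over DMSO, and from -0.053 to 0.997 (apoba) and -1.94 to 4.65 (apoea) at 10 µg/L over DMSO.

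The first index as a covariate left DMSO replicate 3 as the only control. Log2 fold changes at 10 µg/L over this library were -0.027 for apoa1a, -0.074 for apoa1b, -0.51 for apoa2, -0.27 for apobb.1, -0.26 for apoc1, -0.21 for apoc2 and -0.32 for apoea. By edgeR apoc1 was at -0.0041 at 10 µg/L over DMSO. With quantile normalization apoeb was at 0.073 in that comparison and at 0.051 between the concentrations. Relative to the liver markers, chosen after the data were seen, values at 0.1 µg/L over DMSO were 0.079 for apoa1a, 0.025 for apoa1b, 0.081 for apobb.1, 0.072 for apoc2 and 0.16 for apoea. At 10 µg/L over DMSO they were -0.19 for apoa1a, -0.29 for apoc1 and -0.19 for apoea, and between the concentrations -0.27 for apoa1a, -0.25 for apoc1 and -0.35 for apoea. The causes of these reversals were not tested. Without the 100 most abundant other genes, the 9 genes took a mean of 0.671% of reads in DMSO, 0.546% at 0.1 µg/L and 0.835% at 10 µg/L. In this share 0.1 µg/L replicate 2 (0.724%) lay above 10 µg/L replicate 2 (0.721%), so the concentrations overlapped.

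Same-numbered libraries did not deviate together (mean correlation across genes -0.107, 0.0632 and 0.0292), so the numbers were not taken to pair them. With the replicate number as a block, 0, 1 and 5 of the 9 genes had an unadjusted p under 0.05 and 0 in each comparison an adjusted one. At the unadjusted threshold, 83 of 19065 genes were higher and 104 lower at 0.1 µg/L over DMSO. At 10 µg/L over DMSO, 1701 of 19610 genes were higher and 1207 lower. Between the concentrations 2617 of 18965 genes were higher and 2023 lower, and 526 and 214 at the adjusted threshold.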
